A study of Mus musculus with 63 samples.

Results

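Mouse embryonic stem cells without the promoter of the Meteor long non-coding RNA gene were compared with cells in which the same promoter was turned round, both grown in 2i medium. The deletion was carried by 2 lines, pKO1 and pKO2, and the inversion by 1 line, pInv. All were derived from R1 mouse embryonic stem cells and had 3 libraries each, which gave 6 pKO libraries and 3 pInv libraries, 9 of the 63 in the series. They were chosen by their labelled genotype and medium alone. A further 2 unedited R1 lines, WT1 and WT2, had 3 libraries each in the same medium, entered the same model and serve as the background level. The 2i medium contained LIF at 10 ng/ml and a pair of kinase inhibitors, 1 µM PD0325901 against MEK and 3 µM CHIR99021 against GSK3. All lines grew on mouse embryonic fibroblast feeders. Polyadenylated RNA was sequenced after preparation with the Lexogen SENSE kit. The 9 libraries held 8041404 to 14262059 estimated gene counts.

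With 2 deletion lines and 1 inversion line, a difference between the edits cannot be told apart from a difference between lines. The labels do not say that the 3 libraries of a line came from separate cultures, so the p-values measure the spread between libraries of a line, which may be technical, and not the spread between lines. In RNA from whole cultures, fewer cells of a type and less RNA per cell cannot be told apart.

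Long non-coding RNA loci can act on a neighbouring gene through the RNA, through the act of transcription or through DNA elements in the locus. A deleted promoter removes both transcription and the promoter's DNA, and an inverted promoter keeps the DNA in the other orientation. The 2i inhibitors hold stem cells in the naive state, in which signals for differentiation are low. Eomes, which lies beside the locus, encodes a T-box factor that drives mesoderm and endoderm formation and is weakly expressed in naive stem cells.

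The edited locus was read first. The count tables hold no gene under the name Meteor, and the row next to Eomes is Platr11, a long non-coding RNA gene. No source used here states that Platr11 and Meteor are the same transcript, so Platr11 is a readout of the neighbourhood. The 3 pKO1 libraries had 2, 1 and 0 Platr11 counts, the pKO2 libraries 2, 0 and 0, and the pInv libraries 3, 5 and 0. The 6 WT libraries together had 1698 counts. Both edited genotypes therefore lay far below WT in every library. Pooled over libraries, Platr11 stood at 0.0799 CPM in pKO, where CPM is the count relative to the library's TMM-scaled total. The 95% exact Poisson interval was 0.0259 to 0.186 CPM. It stood at 0.241 CPM in pInv (0.104 to 0.475) and 25.1 CPM in WT. The ratio of pKO to pInv was 0.331 with an exact interval of 0.0853 to 1.15, so no difference between the edits was detectable at this depth. These intervals cover counting error only. The genewise test gave an adjusted p of 0.493.

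Eomes stood lower in pKO than in pInv on average, but the libraries overlapped and the gene did not pass the test. The promoter of Eomes is shown because it is the gene next to the edited locus. It is the stretch from 250 bases before to 50 bases after the annotated start in RefSeq (GRCm38.p6, chr9:118477939-118478238, plus strand), with CG dinucleotides in capitals.
Eomes: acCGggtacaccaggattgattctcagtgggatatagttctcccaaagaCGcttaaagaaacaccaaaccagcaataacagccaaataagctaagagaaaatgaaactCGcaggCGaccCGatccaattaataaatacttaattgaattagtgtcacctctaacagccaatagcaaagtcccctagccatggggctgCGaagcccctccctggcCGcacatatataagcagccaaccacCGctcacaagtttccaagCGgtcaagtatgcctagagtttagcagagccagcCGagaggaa
It held 10 CG dinucleotides, and 43.5% of the 32851 RefSeq windows of this length held as many or more. Eomes had 10.4, 8.29 and 8.91 CPM in the pKO1 libraries and 6.94, 8.61 and 7.11 CPM in the pKO2 libraries, against 9.79, 13.5 and 9.69 CPM in the pInv libraries. The highest pKO1 library lay inside the pInv range and the other 5 pKO libraries lay below it. The means were 8.38 ± 1.27 CPM in pKO (SD, n = 6), 10.99 ± 2.15 CPM in pInv (SD, n = 3) and 16.8 ± 3.96 CPM in WT (SD, n = 6). The log2 fold change of pKO over pInv was -0.41 ± 0.15 (SE), with an adjusted p of 0.173 by edgeR and 0.174 by DESeq2. Its 95% interval ran from -0.72 to -0.09, a fold of 0.606 to 0.938, before any adjustment for the number of genes. pKO1 over pInv gave -0.27 ± 0.17 and pKO2 over pInv -0.55 ± 0.17. Without pInv replicate 2, the library with the highest Eomes of the 9, the log2 fold change was -0.23 ± 0.15 (adjusted p = 0.633). Set against WT in the same model, pKO gave -0.98 ± 0.12 (adjusted p = 4e-04) and pInv -0.58 ± 0.15 (adjusted p = 0.0849). These values share the WT libraries, in which WT1 stood above WT2 relative to depth. Raw Eomes counts were 231, 250 and 214 in WT1, with library totals of 11179514 to 12751042. In WT2 they were 90, 166 and 198, with totals of 8076688 to 12887966. The distance from WT thus depends on the WT line, and WT1 against WT2 was not tested.

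No difference between the edits passed the test for the genes on either side. In chromosome order, the neighbours were Rbms3, Azi2 and Cmc1 on the Platr11 side and Golga4, Itga9 and Ctdspl on the Eomes side. Golga4, which encodes a golgin of the trans-Golgi, averaged 51.5 CPM in pKO and 46.6 CPM in pInv, with a log2 fold change of 0.14 ± 0.09. Ctdspl, which encodes a small CTD phosphatase, had the largest difference of these 6, -0.78 ± 0.25 (adjusted p = 0.114, or 0.032 with replicate numbers as a block). Its pKO libraries reached 4.63 CPM and its lowest pInv library was at 4.51 CPM, so the groups overlapped.

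**Figure D1:**
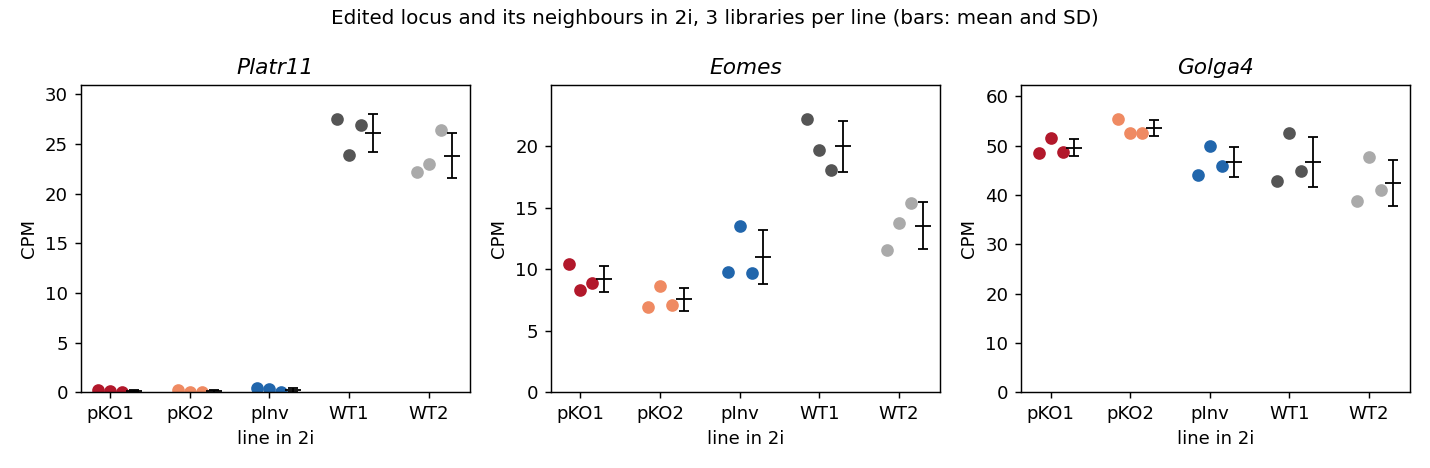
CPM of Platr11, Eomes and Golga4 in each 2i library by line, pKO1 and pKO2 at the left, then pInv, then WT1 and WT2; points are libraries and the bars give the mean and SD of each line. Platr11 is near 0 in all 9 edited libraries and at 25.1 CPM over WT, Eomes overlaps between pKO and pInv, and Golga4 stays between 38 and 56 CPM in all lines.

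Across the transcriptome, deletion and inversion cells differed at a small share of genes, mostly by less than 2-fold. Of 13921 genes tested, 467 passed an adjusted p of 0.05 (3.35%), 130 higher in pKO (0.934%) and 337 lower in pKO (2.42%). A change larger than 2-fold was seen for 18 genes that rose (0.129%) and 59 that fell (0.424%). Fitted with the replicate number as a block, 1291 genes passed (9.27%), 469 higher (3.37%) and 822 lower (5.9%), among them all 467. DESeq2 called 672. The libraries of 391 called genes did not overlap between pKO and pInv (2.81% of genes tested).

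The count rested on single libraries and on the line as the unit. It fell to 124 without pInv replicate 3, all of them among the 467. Without pInv replicate 2 it was 163, and without pInv replicate 1 it was 305. It was 287 without pKO1 replicate 2, 282 without pKO2 replicate 2 and 320 to 340 without any other pKO library. In all 9 fits that left out 1 library, 88 of the 467 genes passed. With counts summed per line and lines as replicates, edgeR called 0 genes, with 304 of 15505 at an unadjusted p under 0.05 and a smallest adjusted p of 0.112.

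The number of calls against the same 3 pInv libraries differed between the 2 deletion lines. pKO1 alone differed from pInv at 6 genes (0.0431%), with 346 under the block (2.49%) and 149 by DESeq2. Of the 6, 5 were higher (0.0359%) and 1 lower (0.00718%). pKO2 alone differed at 778 (5.59%), with 1780 under the block (12.8%). pKO1 differed from pKO2 at 79 genes (0.567%), 70 higher in pKO1 (0.503%) and 9 lower (0.0647%), with 584 under the block (4.2%) and 252 by DESeq2. Of the 79, 36 were among the 467. Leaving out any pKO1 or pKO2 library brought these 79 to between 8 and 14 calls, and without pInv replicate 3 there were 25. For pKO1 alone no gene passed by edgeR without pKO1 replicate 1, and 2 or 3 passed without pKO1 replicate 2 or any 1 pInv library. For pKO2 alone 352 to 401 passed without any 1 pKO2 library or without pInv replicate 2 or 3.

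The 5 genes that were higher for pKO1 alone were Epas1, Ephx2, Sall3, Pknox2 and Slc41a1. Epas1 encodes the hypoxia-inducible factor HIF-2 alpha. It had 112, 96.7 and 103 CPM in pKO1 and 94.7, 87.2 and 108 CPM in pKO2, against 49.4, 53.7 and 57.1 CPM in pInv. Every pKO library lay above every pInv library, and the log2 fold change was 0.91 ± 0.11 (adjusted p = 0.0011). WT averaged 109 ± 13.3 CPM (SD, n = 6), so pInv was the low line, with -1.03 against WT (adjusted p = 0.00124) and -0.13 for pKO against WT (adjusted p = 0.404). Sall3, a zinc finger factor of the spalt family, had a log2 fold change of 0.67 ± 0.08 (adjusted p = 0.00108), and Pknox2, a TALE homeobox factor, 0.84 ± 0.16 (adjusted p = 0.013). The Pknox2 call was lost without pInv replicate 2 or 3. Slc41a1, a magnesium transporter, was high in 1 line: 200, 185 and 201 CPM in pKO1 and 112, 122 and 127 CPM in pKO2, against 108, 128 and 129 CPM in pInv. pKO1 and pKO2 differed for it by 0.70 ± 0.09 (adjusted p = 0.00206). The call of Slc41a1 for both lines held in 3 of the 9 fits that left out 1 library, and was lost without any pInv library, pKO1 replicate 3 or pKO2 replicate 2 or 3.

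Genes of chromosome 8 made up 201 of the 337 falls and none of the 130 rises. Their median log2 fold change was -0.39 over 735 genes tested, against 0.00 over all genes, and 93.9% of them lay below 0. The share called was 27.3%, against 3.35% over all genes. The median was -0.27 for pKO1 over pInv and -0.50 for pKO2 over pInv. Other chromosomes had medians between -0.03 and 0.05, apart from the 6 genes of chromosome Y. Chromosome 10 had 20 falls and 2 rises, a share of 3.4% called, near the 3.35% over all genes. Its median was -0.09 for pKO2 over pInv and 0.00 for pKO1 over pInv. Chromosome 11 had 8 falls and 6 rises (1.2% called), with a median of -0.10 for pKO2 over pInv and 0.05 for pKO1 over pInv. Its median for pKO1 over pKO2 was 0.16, against 0.13 on chromosome 10 and 0.23 on chromosome 8. With the block, 390 genes of chromosome 8 passed, all lower. Leaving out any 1 library lowered the count of 201. Without pInv replicate 3 the count was 53, and without pInv replicates 2 or 1, pKO1 replicate 2 or pKO2 replicate 2 it was 82, 133, 113 and 116. Without pKO1 replicate 1 or 3 it was 154 and 137, and without pKO2 replicate 1 or 3 it was 146 and 143.

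The share of all counts on chromosome 8 genes was steady within lines and differed between them. It was 5.19% to 5.26% in pKO1 and 4.41% to 4.55% in pKO2, against 6.16% to 6.34% in pInv. In WT1 it was 4.48% to 4.68%, and in WT2 5.95% to 6.07%. The WT lines thus stood nearly as far apart as pKO2 and pInv did, and the shares did not sort by genotype. The number of copies of chromosome 8 was not measured, and its part in the falls was not tested. Off chromosome 8, 266 of 13186 genes passed (2.02%), 130 higher (0.986%) and 136 lower (1.03%). A model refitted without the genes of chromosome 8 called 172, of which 74 were higher and 98 lower.

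**Figure D2:**
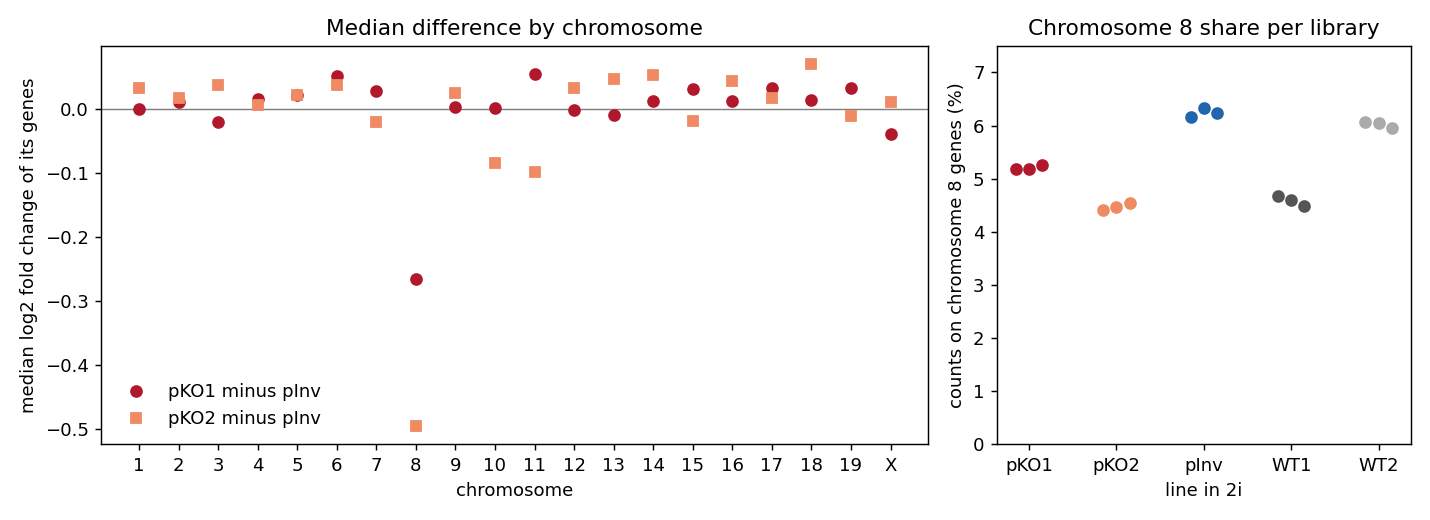
Left, the median log2 fold change of the genes of each chromosome for pKO1 over pInv (circles) and pKO2 over pInv (squares). Right, the percentage of counts on chromosome 8 genes in each library by line, where pInv and WT2 lie near 6%, pKO1 near 5.2% and pKO2 and WT1 near 4.5%.

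Chromosome 8 genes with small p-values included Mbtps1, Sfrp1 and Tmem231. Mbtps1, the site-1 protease that activates sterol regulatory element binding proteins, had 216, 196 and 212 CPM in pKO1 and 166, 160 and 170 CPM in pKO2, against 254, 285 and 260 CPM in pInv. Its 3 lines formed separate bands, with pKO2 lowest, and the log2 fold change was -0.52 ± 0.06 (adjusted p = 0.00108). Sfrp1, a secreted Wnt antagonist, fell by 0.62 ± 0.09 (adjusted p = 0.00258). Mtmr7, a phosphoinositide phosphatase, and Lonrf1, a RING finger protein, both fell by 0.65. Tmem231, a protein of the ciliary transition zone, fell by 0.53 ± 0.07. These 5 passed in each of the 9 fits that left out 1 library. They were picked after their values were seen.

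The 12 largest rises included Ror1, Lin28a, Trh and Ephx2. They were taken from the 383 genes that passed, averaged at least 1 CPM and had no overlap between pKO and pInv libraries, so their separation is a condition of the choice. Ror1, a receptor tyrosine kinase-like receptor for Wnt5a, had 4.24, 3.39 and 3.20 CPM in pKO1 and 4.27, 5.50 and 4.29 CPM in pKO2, against 1.16, 0.494 and 1.60 CPM in pInv. Its log2 fold change was 1.94 ± 0.37 (adjusted p = 0.013). WT averaged 1.87 ± 0.643 CPM, near the highest pInv library. Lin28a, which encodes the RNA-binding protein that blocks let-7 maturation, had 23.4, 23.2 and 24.4 CPM in pKO1 and 24.7, 28.0 and 29.4 CPM in pKO2, against 8.25, 10.2 and 12.5 CPM in pInv. The log2 fold change was 1.29 ± 0.21 (adjusted p = 0.00473). The pKO libraries were tight and about level in both lines, whereas WT libraries spread widely, with 18.4 ± 8.09 CPM (SD, n = 6).

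Ephx2, the soluble epoxide hydrolase of lipid mediator metabolism, was also higher in pKO. It had 71.5, 60.8 and 55.7 CPM in pKO1 and 95.1, 72.2 and 60.2 CPM in pKO2, against 36.2, 26.9 and 27.1 CPM in pInv, with a log2 fold change of 1.20 ± 0.14 (adjusted p = 0.00108). WT, at 47.4 ± 11 CPM, lay between them. Trh, the precursor of thyrotropin-releasing hormone, had 23.5, 11.4 and 19.6 CPM in pKO1 and 17.7, 7.19 and 12 CPM in pKO2, against 4.25, 3.74 and 5.51 CPM in pInv. Replicate 2 was the lowest library in each of these lines, and the log2 fold change was 1.72 ± 0.37 (adjusted p = 0.0208). H2-Bl, a class I-like major histocompatibility gene, rose by 1.25 ± 0.18 on the log2 scale, and Lipc, the hepatic lipase, by 1.20 ± 0.26. The other 6 were Nkain4 (1.79), a protein that interacts with the sodium pump, Slc26a9 (1.47), an anion transporter, Foxr2 (1.34), a forkhead factor, Nlrp4a (1.16), an NLR family gene, Thap2 (1.14), a THAP domain gene, and Stambpl1 (1.10), a deubiquitinase. Of the 12, Lin28a, H2-Bl and Ephx2 passed in all 9 fits that left out 1 library. Nkain4 passed in none, Foxr2 in 1 and Stambpl1 in 2. Without pInv replicate 2 the calls of Ror1, Trh, Slc26a9, Lipc and Nlrp4a were lost too, and without pInv replicate 3 those of Trh, Lipc, Nlrp4a and Thap2. Without pInv replicate 1 those of Trh, Slc26a9 and Thap2 were lost, and Slc26a9 also lost its call without pKO1 replicate 2 or 3 or pKO2 replicate 2.

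The 12 largest falls included the homeobox genes Hoxa10 and Rhox13 and the T-box gene Tbx21. Hoxa10 had 3.21, 2.58 and 2.51 CPM in pKO1 and 0.934, 0.532 and 1.54 CPM in pKO2, against 7.86, 7.97 and 6.76 CPM in pInv. Its log2 fold change was -2.17 ± 0.35 (adjusted p = 0.00473), and it passed in all 9 fits that left out 1 library. Popdc3, a Popeye domain gene of membranes, had 2.44, 1.87 and 2.28 CPM in pKO1 and 0.934, 1.24 and 1.29 CPM in pKO2, against 4.77, 4.16 and 4.89 CPM in pInv, with -1.51 ± 0.24 (adjusted p = 0.0047). For both genes pKO2 was the lowest line. Tbx21, a T-box factor best known from T cells, had 3.08, 2.85 and 3.65 CPM in pKO1 and 1.60, 0.621 and 0.857 CPM in pKO2, against 4.51, 4.73 and 4.09 CPM in pInv (-1.32 ± 0.28, adjusted p = 0.0207).

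Rhox13, an X-linked reproductive homeobox gene, fell by 1.43 ± 0.31 on the log2 scale (adjusted p = 0.0223), and its 6.06, 9.95 and 10.5 CPM in pInv lay above WT, at 3.78 ± 1.12 CPM. Of 29 Rhox rows 5 were tested, and Rhox13 alone passed (2.42% lower over all genes). Prph, the intermediate filament protein peripherin, fell by 1.33 ± 0.28, Ffar3, a receptor for short-chain fatty acids, by 1.36 ± 0.29, and Oc90, an otoconin gene, by 1.54 ± 0.31. Gm3336 and Klhl36, both on chromosome 8, fell by 1.40 and 1.32. Usp17le and Xlr5c, at -1.45 and -1.33, belong to families of near-identical copies, so their counts are uncertain. The remaining row is a copy row of Gm14440, a gene of near-identical copies, and its count is uncertain. It was at 0 in 5 pKO libraries and 0.267 CPM in the other, against 4.51, 1.91 and 2.94 CPM in pInv, and at 0 in all 3 WT1 libraries. Its fitted change was larger than that of Hoxa10 but depends on the prior count, so no fold is given. Of the 12, Hoxa10 and Popdc3 passed in all 9 fits that left out 1 library, Klhl36 in 2 and Usp17le in 4. Without pInv replicate 2 the calls of Usp17le, Rhox13, Gm3336, Ffar3, Prph, Xlr5c, Klhl36 and Tbx21 were lost. Without pInv replicate 3 those of Gm14440, Oc90, Usp17le, Rhox13, Gm3336, Ffar3, Xlr5c, Klhl36 and Tbx21 were. Without pInv replicate 1 those of Usp17le, Gm3336, Xlr5c, Klhl36 and Tbx21 were lost, and among pKO libraries Rhox13 depended on pKO1 replicate 2, Tbx21 on pKO2 replicate 2 and Xlr5c on pKO2 replicate 3.

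**Figure D3:**
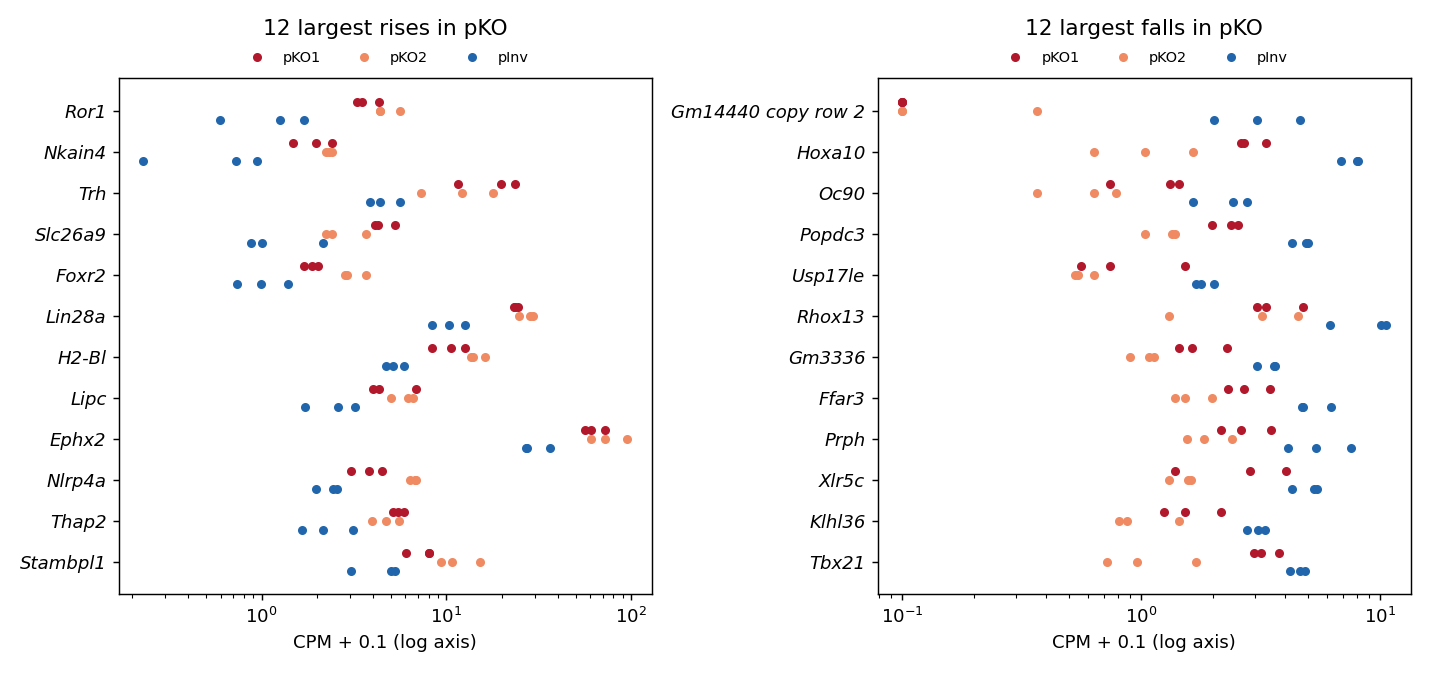
CPM plus 0.1, on a log axis, of the 12 largest rises (left) and the 12 largest falls (right) in each pKO1, pKO2 and pInv library; every point is a library. By the rule of choice the pKO points lie on one side of the pInv points for every gene, and Hoxa10 spans 0.532 to 3.21 CPM in pKO against 6.76 to 7.97 CPM in pInv.

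Some Hox genes, which encode homeobox factors that pattern the body axis and are held near silence by Polycomb in stem cells, fell in pKO. Of 33 listed, 23 were tested, and 8 of them passed, all lower (2.42% over all genes), with 16 at an unadjusted p under 0.05 (14.8% over all genes). The median of the 23 was -0.83, and 22 lay below 0. In the Hoxa cluster 3 of 6 passed, 0 of 5 in Hoxb, 3 of 6 in Hoxc and 2 of 6 in Hoxd. The cluster medians were -1.21 for Hoxa, -0.58 for Hoxb, -0.96 for Hoxc and -0.90 for Hoxd. Below 0 were 6 of 6, 4 of 5, 6 of 6 and 6 of 6 in that order, and differences between clusters were not tested. The clusters lie on chromosomes 6, 11, 15 and 2, none on chromosome 8. Levels were low, and the cluster members tested averaged 0.597 to 24.9 CPM over the 9 libraries.

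Promoters of Hoxa10 and Hoxd9 are shown because these genes, from different clusters, passed in every fit that left out 1 library. They run from 250 bases before to 50 after the RefSeq start on GRCm38.p6, Hoxa10 at chr6:52240805-52241104 on the minus strand (the first of 2 annotated starts) and Hoxd9 at chr2:74697513-74697812 on the plus strand. CG dinucleotides are in capitals.
Hoxa10: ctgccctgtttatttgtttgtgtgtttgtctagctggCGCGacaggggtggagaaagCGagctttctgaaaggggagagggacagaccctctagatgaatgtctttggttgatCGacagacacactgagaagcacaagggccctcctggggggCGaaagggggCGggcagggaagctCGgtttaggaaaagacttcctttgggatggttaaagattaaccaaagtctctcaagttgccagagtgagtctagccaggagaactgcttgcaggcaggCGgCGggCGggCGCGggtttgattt
Hoxd9: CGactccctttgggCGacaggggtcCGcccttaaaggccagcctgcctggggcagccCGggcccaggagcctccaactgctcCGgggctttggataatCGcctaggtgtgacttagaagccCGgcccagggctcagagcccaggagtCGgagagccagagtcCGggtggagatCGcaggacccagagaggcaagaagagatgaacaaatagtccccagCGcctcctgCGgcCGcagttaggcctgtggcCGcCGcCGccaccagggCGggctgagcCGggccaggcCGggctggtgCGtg
Hoxa10 held 12 CG dinucleotides and Hoxd9 20, and 39.6% and 26.5% of the 32851 windows held as many or more. The median over all windows was 7. No methylation or binding was measured here.

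Hoxd9 had 5.27, 6.15 and 3.96 CPM in pKO1 and 2.40, 2.75 and 2.40 CPM in pKO2, against 8.63, 8.54 and 8.71 CPM in pInv. The lines formed 3 bands with no overlap, and the log2 fold change was -1.26 ± 0.20 (adjusted p = 0.00465). Hoxc5 followed the same order, with 6.55, 8.91 and 7.01 CPM in pKO1 and 3.73, 4.44 and 3.94 CPM in pKO2, against 10.4, 13.97 and 12.5 CPM in pInv (-1.16 ± 0.19, adjusted p = 0.00473). In WT these genes were not at the pInv level: Hoxd9 averaged 3.31 ± 0.785 CPM and Hoxc5 4.91 ± 1.14 CPM. pInv exceeded WT by 1.38 for Hoxd9 (adjusted p = 0.00608) and by 1.34 for Hoxc5 (adjusted p = 0.00591). Hoxa10 went the other way, with a log2 fold change of pKO over WT of -1.51 (adjusted p = 0.00971) and pInv at 0.66 over WT (adjusted p = 0.439). Which line stood away from WT thus varied from gene to gene.

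Hoxa3 (-1.29), Hoxa9 (-1.76), Hoxc4 (-0.75), Hoxc10 (-1.33) and Hoxd11 (-1.87) also fell. Hoxb9, the only Hox gene above 0, had a log2 fold change of 0.21 ± 0.09 (adjusted p = 0.305). The count of 8 was 3 without pInv replicate 2 and 3 without pInv replicate 3, and 6 or 7 without any other single library. Hoxa3 and Hoxd11 lost their calls without either of those 2 libraries, and Hoxa9, Hoxc4 and Hoxc10 passed in 2, 1 and 1 of the 9 fits. Against pInv, pKO1 alone gave 0 Hox calls by edgeR with a median of -0.55. At an unadjusted p under 0.05 there were 9, and the share over all genes was not counted for pKO1 alone. pKO2 alone gave 8, all lower (4.05% over all genes), with a median of -1.13.

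**Figure D4:**
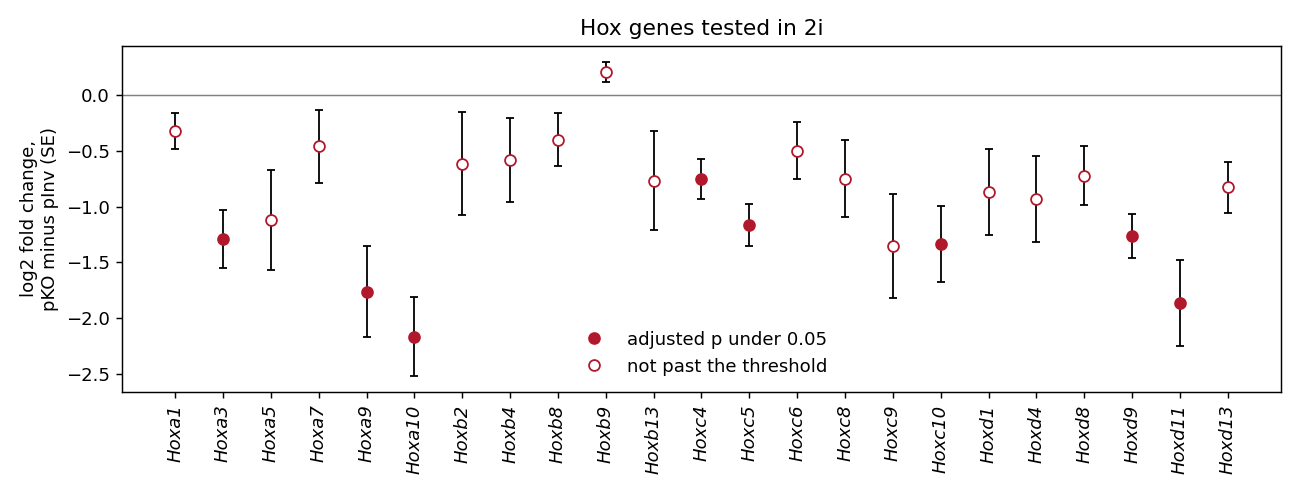
Log2 fold change of pKO over pInv in 2i for the 23 Hox genes tested, in cluster order, with the standard error; filled points passed an adjusted p of 0.05. Points run from -2.17 for Hoxa10 to 0.21 for Hoxb9, and the 8 filled points are all below 0 and in the Hoxa, Hoxc and Hoxd clusters.

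The Xlr family, X-linked genes related to a synaptonemal complex protein that are expressed in germ cells and lymphocytes, also held genes that fell, and was picked after its values were seen. Of 10 Xlr genes tested, 4 fell (2.42% over all genes) and none rose, and the median was -1.14. For pKO1 alone 0 passed by edgeR (4 at an unadjusted p under 0.05, share over all genes not counted) with a median of -0.59. For pKO2 alone 5 fell (4.05% over all genes) with a median of -1.57. Xlr3c had 16.7, 21.4 and 19.04 CPM in pKO1 and 7.34, 10.2 and 6.94 CPM in pKO2, against 33.0, 25.8 and 31.3 CPM in pInv (-1.26 ± 0.16, adjusted p = 0.0011). The 3 lines again did not overlap, and pKO1 exceeded pKO2 by 1.22 (adjusted p = 0.017). WT averaged 14.8 ± 4.66 CPM, below pInv. Xlr5a fell by 1.21 and Xlr5b by 1.58. Without pInv replicate 3 the count was 2, since Xlr5b and Xlr5c lost their calls. The copies are so alike that reads may be split between them.

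Among naive and core pluripotency genes 4 rose and none fell. Nanog, the homeobox factor of the naive state, averaged 1266 CPM in pKO and 1289 CPM in pInv (-0.03 ± 0.09), and Pou5f1, the core factor Oct4, 663 CPM in pKO and 664 CPM in pInv (-0.01 ± 0.10). Of 12 core factors tested, 2 rose (0.934% over all genes) and none fell: Lin28a, described above, and Sall4. Sall4, a zinc finger partner of Oct4, had 330, 298 and 311 CPM in pKO1 and 270, 260 and 278 CPM in pKO2, against 185, 234 and 242 CPM in pInv (0.40 ± 0.09, adjusted p = 0.0271). Of 15 naive factors, 2 rose and none fell, whereas 3 rose and 1 fell under the block and by DESeq2. No naive factor passed without pInv replicate 2. Klf5, a Krüppel-like factor of the naive network, rose by 0.51 ± 0.11 (adjusted p = 0.0175), and Nr0b1, the nuclear receptor Dax1, by 0.51 ± 0.11 (adjusted p = 0.0223). Sall4 passed in 1 of the 9 fits that left out a library, Klf5 lost its call without pInv replicate 2, and Nr0b1 without pInv replicate 2 or 3.

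Lef1, a transcription factor of Wnt signalling that rises as cells leave the naive state, was higher in pKO. It was the 1 formative gene of 13 tested and the 1 Wnt target of 12 that passed (0.934% higher over all genes). It had 11.1, 10.4 and 10.4 CPM in pKO1 and 17.1, 15.9 and 15.2 CPM in pKO2, against 6.44, 5.57 and 6.31 CPM in pInv. Every line had its own band, and the log2 fold change was 1.10 ± 0.13 (adjusted p = 0.00108). WT averaged 13.3 ± 8.56 CPM, and the log2 fold change of pInv over WT was -0.85 (adjusted p = 0.00878). This WT mean pools WT1 and WT2, which were not compared for Lef1. The distance of pInv from WT may therefore depend on the WT line. Axin2, a negative regulator of the Wnt pathway and a direct target of it, had 0.41 ± 0.15 (adjusted p = 0.17, or 0.0416 with the block). With the block 3 Wnt targets rose and 1 fell, and 2 formative genes rose.

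Several glycolytic and hypoxia-responsive genes rose in pKO. Of 20 tested, 5 rose (0.934% over all genes) and none fell, with a median of 0.20. With the block 9 rose and 1 fell (3.37% and 5.9% over all genes under the block). Ldhb, a subunit of lactate dehydrogenase, had 190, 171 and 163 CPM in pKO1 and 302, 297 and 288 CPM in pKO2, against 138, 119 and 89.9 CPM in pInv (0.98 ± 0.12, adjusted p = 0.0011). Egln3, a prolyl hydroxylase that marks hypoxia-inducible factors for degradation and is induced by them, had 30.3, 30.8 and 24.9 CPM in pKO1 and 43.4, 44.1 and 45.2 CPM in pKO2, against 18.2, 21.2 and 15.7 CPM in pInv (0.95 ± 0.12, adjusted p = 0.00154). In both genes pKO1 lay between pKO2 and pInv.

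Hk2, the hexokinase of the first step of glycolysis, rose by 0.43 ± 0.07 (adjusted p = 0.00632). Slc2a1, the glucose transporter GLUT1, rose by 0.53 ± 0.11 (adjusted p = 0.0157), and Eno1, an enolase with near-identical copies in the genome, by 0.25 ± 0.06 (adjusted p = 0.0333). Ldha, the other main lactate dehydrogenase subunit, had 0.16 ± 0.08 (adjusted p = 0.412), and Vegfa, a classic hypoxia target, -0.03 ± 0.10 (adjusted p = 0.954). Ldhb, Egln3 and Hk2 passed in all 9 fits that left out 1 library, Slc2a1 not without pInv replicate 1 or 3, and Eno1 in 1 of the 9. The count was 3 without pInv replicate 1 and 3 without pInv replicate 3. For pKO1 alone 0 passed by edgeR (5 at an unadjusted p under 0.05, share over all genes not counted). For pKO2 alone 7 rose (1.54% over all genes) and 1 fell (4.05%).

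Some sterol synthesis genes were lower in pKO than in pInv. Of 20 tested, 4 fell (2.42% over all genes) and none rose, 18 lay below 0, and the median was -0.23. Mvd, mevalonate diphosphate decarboxylase, had 38.5, 36.7 and 38.9 CPM in pKO1 and 26.0, 27.6 and 29.6 CPM in pKO2, against 57.2, 69.8 and 50.5 CPM in pInv (-0.86 ± 0.13, adjusted p = 0.00351). Msmo1, the sterol methyl oxidase, fell by 0.56 ± 0.11 (adjusted p = 0.013). Both genes lie on chromosome 8. Off that chromosome, Fdps, farnesyl diphosphate synthase, fell by 0.35 ± 0.07 (adjusted p = 0.0166) and Hsd17b7, a reductase of the same pathway, by 0.37 ± 0.09 (adjusted p = 0.033). The Hsd17b7 call held in 2 of the 9 fits that left out 1 library and was lost with no filter on low counts (adjusted p = 0.0529). The Fdps call was lost without pInv replicate 2 or 3, and that of Msmo1 without pInv replicate 3. Sqle, squalene epoxidase, had 0.01 ± 0.09 (adjusted p = 0.985). For pKO1 alone 0 passed by edgeR (10 at an unadjusted p under 0.05, share over all genes not counted). For pKO2 alone 3 fell (4.05% over all genes). The median was -0.28 for pKO1 and -0.10 for pKO2, and this difference was not tested. The count was 1 without pInv replicate 3, where Mvd passed, and 2 without pInv replicate 2. Against WT, 0 of the 20 passed for pKO (9.04% over all genes). For pInv against WT 2 passed, both higher (0.891% called over all genes).

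A few markers of other lineages were lower in pKO than in pInv, in lists that went both ways. Among neural progenitor genes, 2 of 9 fell (2.42% over all genes): Nes, the intermediate filament nestin, with -0.78 ± 0.12 (adjusted p = 0.00465), and Lhx2, a LIM homeobox factor, with -0.84 ± 0.21 (adjusted p = 0.0394). Nes had 8.61, 10.5 and 10.3 CPM in pKO1 and 6.67, 7.90 and 7.80 CPM in pKO2, against 13.0, 15.1 and 16.0 CPM in pInv. Of 8 definitive endoderm genes 1 fell, Gata4, a zinc finger factor of endoderm and heart, with 7.45, 5.35 and 7.39 CPM in pKO1 and 4.27, 4.08 and 4.20 CPM in pKO2, against 11.3, 10.7 and 11.4 CPM in pInv (-1.07 ± 0.22, adjusted p = 0.0159). Both genes showed no overlap between pKO and pInv. Of 12 epithelial genes Krt8, a keratin of simple epithelia, fell by 1.04 ± 0.19 (adjusted p = 0.0104; 1 rise and 2 falls with the block). Nes passed in all 9 fits that left out 1 library and Lhx2 in 1. The call of Gata4 was lost without pInv replicate 2 or 3, and that of Krt8 without pInv replicate 2. With the block 3 neural progenitor genes fell (5.9% over all genes under the block). Above 0 lay 4 of the 9 neural progenitor, 4 of the 8 definitive endoderm and 4 of the 12 epithelial genes. The medians of these lists were -0.001, -0.197 and -0.363 in that order. Against WT, pKO had 0 calls among the neural progenitor genes, and pInv had 2, both higher. Among the definitive endoderm genes both had 0, and among the epithelial genes 5 fell in pKO and 1 in pInv. Over all genes, 9.04% were called for pKO against WT and 0.891% for pInv.

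Of 20 listed primitive streak and mesendoderm genes 8 were tested, and none of the 8 passed by edgeR or DESeq2. Of the 8, 2 had an unadjusted p under 0.05, and the median was -0.35. The median was 0.18 for pKO1 and -0.72 for pKO2, and it ran from -0.40 to 0.03 with 1 library left out, above 0 without pInv replicate 3. With the block 1 of them rose. Mixl1, a homeobox gene of the primitive streak, averaged 1.11 CPM in pKO and 1.67 CPM in pInv (-0.57 ± 0.30, adjusted p = 0.412). None of 14 Nodal pathway genes passed by either tool, with 1 at an unadjusted p under 0.05 and 2 falls with the block. The 7 genes of the 2-cell-like state, Zscan4 and Usp17l copies that are uncertain because they are nearly alike, ran from -1.34 to -0.74. Usp17le, a copy that passed and is described above, is not in this list. None of the 7 passed by either tool, 2 had an unadjusted p under 0.05, and 1 fell with the block, without pKO2 replicate 1 and without pKO2 replicate 3.

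Among retinoic acid genes 2 of 12 rose (0.934% over all genes), among them Rara, a retinoic acid receptor, by 0.49 ± 0.11 (adjusted p = 0.0198). The Rara call was lost without pInv replicate 1 or without pInv replicate 3. Of 12 genes of the G1 phase 1 rose (0.934% over all genes), Cdk6, a cyclin-dependent kinase, by 0.47 ± 0.11 (adjusted p = 0.0271). With the block 3 of them rose. Single falls (2.42% over all genes) were seen in the germline, imprinted and amino acid stress lists, with list medians of -0.027, -0.027 and -0.003. Piwil2, a partner of piRNAs, fell among 15 germline genes (-0.80), and Igf2r, the receptor that clears IGF2, among 23 imprinted genes (-0.31). Slc7a5, an amino acid transporter encoded on chromosome 8, fell among 16 stress genes (-0.34). With the block the germline list had 2 falls, the imprinted list 2 rises and 2 falls, and the stress list 1 rise and 1 fall. Cdk6, Piwil2 and Igf2r each passed in 1 of the 9 fits that left out a library, and Slc7a5 in 3.

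No call was made by edgeR among 14 ERK targets, 9 DNA methylation genes, 10 BMP and Id genes, 14 neuronal, 7 neural crest, 5 trophoblast and 11 extraembryonic endoderm genes. The numbers at an unadjusted p under 0.05 were 3, 0, 0, 4, 1, 3 and 3 in that order, and DESeq2 called 1, 0, 0, 0, 1, 1 and 2. With the block the calls were 3, 0, 0, 2, 1, 2 and 3. Leaving out 1 library gave 1 neuronal fall (without pKO2 replicate 1) and 1 trophoblast fall (without pKO1 replicate 3 or pInv replicate 1).

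**Figure D5:**
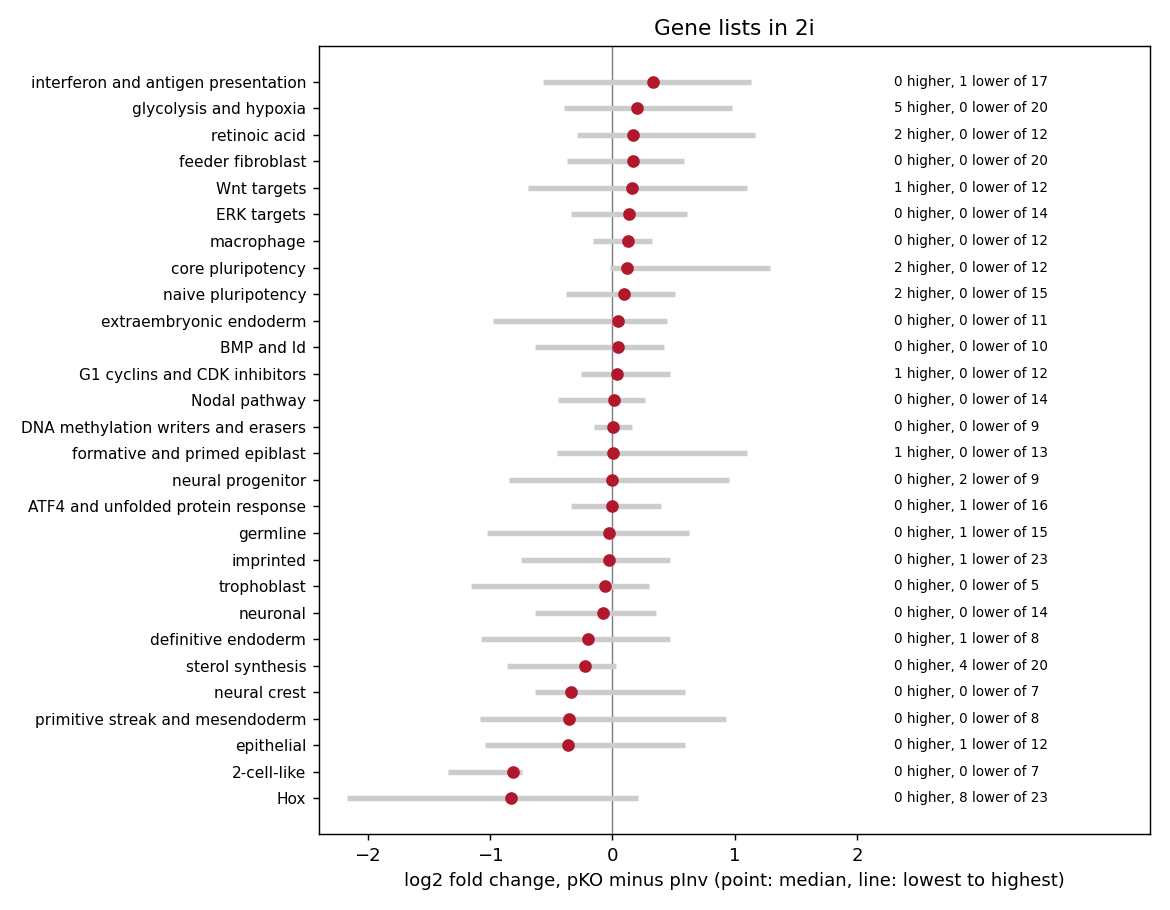
Median log2 fold change of pKO over pInv in 2i for each of 28 gene lists (points), with the lowest and highest member (grey lines) and the number of members that passed an adjusted p of 0.05. The Hox and 2-cell-like lists have the lowest medians, -0.83 and -0.82, and the interferon list the highest, 0.34.

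No feeder marker and 1 interferon-related gene passed. Of 20 feeder fibroblast markers none passed by either tool, 2 had an unadjusted p under 0.05, and the median was 0.17, with 4 rises under the block. The median was 0.40 for pKO1 and -0.05 for pKO2, and it ran from -0.16 without pInv replicate 1 to 0.47 without pInv replicate 3. Their summed level was 870 to 2507 CPM in pKO and 760 to 1992 CPM in pInv. It was lowest in replicate 1 of each line. Within a replicate number, pKO1 lay above pInv in 3 of 3 pairs and pKO2 in 1 of 3. Of 12 macrophage markers none passed by edgeR and 1 by DESeq2, 1 had an unadjusted p under 0.05, and the summed level was 344 to 536 CPM in pKO and 284 to 379 CPM in pInv. Both pKO libraries lay above the pInv library of the same number in each of the 3 numbers. In replicate 1 the sums were 374 CPM in pKO1 and 344 CPM in pKO2, against 284 CPM in pInv, and in replicate 3 they were 424 CPM in pKO1 and 359 CPM in pKO2, against 343 CPM in pInv. In replicate 2 they were 536 CPM in pKO1 and 427 CPM in pKO2, against 379 CPM in pInv. Of 17 interferon and antigen presentation genes 1 fell (2.42% over all genes). It was H2-K1, a class I histocompatibility gene, with -0.57 ± 0.12 (adjusted p = 0.0178), a call lost without pInv replicate 2 or 3. The median of the 17 was 0.34, and it ran from -0.04 without pKO1 replicate 3 to 0.86 without pInv replicate 3. With the block 7 rose (3.37% over all genes under the block), among them Oasl2 (1.14) and Isg15 (0.87), which are induced by interferon. The part of feeder cells in these or other differences was not tested.

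The same contrast was set beside serum medium, in 1 model of 30 libraries. In serum, 110 of 14937 genes passed for pKO over pInv (0.736%), and the contrast differed between the media at 53 genes (0.355%; 331 with the block, 96 by DESeq2). The 53 became 17 without pInv replicate 2, 33 without pInv replicate 1 and 34 without pInv replicate 3, all in 2i. Of the 467 genes called in 2i, 15 were called in serum in the same direction and 25 in the difference. Lin28a had -0.01 in serum, and the difference of 1.30 between media passed (adjusted p = 0.0135). Epas1 had a larger contrast in serum, 1.69 (adjusted p = 6.45e-06), and its difference of -0.79 did not pass (adjusted p = 0.222). The Hox list had a median of 0.38 over 31 genes tested in serum, where 0 passed by edgeR, with 3 at an unadjusted p under 0.05. None of these 31 passed in the difference, with 14 at an unadjusted p under 0.05. The shares of all genes at that p were not counted. Eomes had -0.55 ± 0.21 in serum (adjusted p = 0.313), near its value in 2i.

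For 382 of the 467 genes, the WT mean lay between the pKO and pInv means on the log2 scale. These genes were chosen for a gap between pKO and pInv, which favours a WT mean between them. The share over all genes was not counted, so nothing is drawn from the 382. pKO was the closer to WT at 230 and pInv at 237. By its own test against WT, pKO had 1259 calls (9.04%) and pInv 124 (0.891%), with 2909 (20.9%) and 794 (5.7%) under the block. These tests share the WT libraries and rest on 2 lines for pKO and 1 for pInv.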

How the data were processed

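RNA-seq gene tables of mouse embryonic stem cells were used. Per the submitters' processing notes, the authors quantified genes with RSEM on mm9, and the deposited tables give expected counts and TPM per gene. The RSEM version and the aligner are not given in the sources used here. TPM values were used only to check the units. Expected counts were rounded to whole numbers. Of 24990 rows per table, 28 had no gene name and were left out (1.356% to 4.349% of counts in 2i libraries), and 375 merge several genes.

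The 15 libraries of 5 lines in 2i entered 1 edgeR 4.0.16 quasi-likelihood model (R 4.3.3) with TMM scaling, filterByExpr by line and Benjamini-Hochberg adjustment at 0.05 over all genes. All adjusted p-values are edgeR's unless DESeq2 1.42.0 is named. The pKO value is the mean of pKO1 and pKO2 on the log2 scale. CPM used TMM-scaled library sizes. Serum was compared in 1 model of 30 libraries. Replicate numbers pair the samples: in 30 of 30 same-numbered pairs, deviations from line means correlated above 0.1 (lowest 0.25, median 0.455). Block values are therefore given beside many counts and calls, but not all. Over all genes, 3.37% were higher and 5.9% lower with the block, which is the background for every block count of a gene list. With the block 10 Hox, 6 sterol synthesis and 5 Xlr genes fell. It also gave rises of 3 core pluripotency, 3 retinoic acid and 1 macrophage genes. No libraries of a line were duplicates.

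Named genes were the 12 largest rises and 12 largest falls among genes that passed, averaged at least 1 CPM and did not overlap, with listed genes and the locus. The calls for pKO1 alone, the chromosome 8 genes and the Xlr family were picked after their values were seen. Members and gene lists were chosen with earlier results of these data known. The model was tested on simulated data. Some genes are not reported here.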

Additional observations from a re-analysis of the deposited data

Results flagged for a closer look

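For some genes the contrast of pKO over pInv differed between 2i and serum by the test of the difference (edgeR, adjusted p under 0.05). The 2i minus serum difference on the log2 scale was 1.98 for Ror1, 2.36 for Trh, 1.30 for Lin28a and 1.11 for Ldhb. In serum alone the log2 fold changes of pKO over pInv were -0.03 for Ror1, -0.65 for Trh, -0.01 for Lin28a and -0.14 for Ldhb. The difference was -2.24 for Usp17le, -0.67 for Tmem231 and -3.97 for Xlr3c, and the serum fold changes of these were 0.79, 0.14 and 2.70.

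For other genes the 2 deletion lines differed from each other by the test of pKO1 over pKO2. The log2 fold change was 0.46 for Slc7a5, 0.70 for Slc41a1, 0.49 for Tmem231, 1.22 for Xlr3c, 2.09 for Xlr5b and -0.76 for Ldhb. Slc7a5 and Tmem231 lie on chromosome 8, where pKO1 and pKO2 had different shares of counts. The part of that share in these differences was not tested.

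Among the 6 pKO libraries of Usp17le, the highest, at 1.43 CPM, stood apart from the others by Dixon's criterion. Chance alone marks about 1 in 20 groups this way.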

How the results depend on the processing

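The 467 genes that differed between pKO and pInv became 1291 with the replicate block, 6 with pKO1 alone, 778 with pKO2 alone, 176 without the genes of chromosomes 8 and 11, 172 without those of chromosome 8 (chosen after seeing the data), and 124 to 340 when 1 library was left out. With lines as replicates edgeR called 0, with 304 at an unadjusted p under 0.05. DESeq2 gave 672. The 6 genes of pKO1 against pInv became 149 by DESeq2, 346 with the block and 0 to 5 with 1 library left out. The 778 of pKO2 against pInv became 1780 with the block and 352 to 692 with 1 library left out. The 79 of pKO1 against pKO2 became 252 by DESeq2, 32 with no filter on low counts, 584 with the block and 8 to 75 with 1 library left out. The 53 genes that differed between media became 96 by DESeq2, 331 with the block and 17 to 46 with 1 library left out. Without the genes of chromosome 8, 74 of 13216 genes were higher and 98 lower, and 13 of the genes followed by name lost their calls. Of the lists, 6 Hox genes and 1 neural progenitor gene fell there, and 4 glycolytic and hypoxia genes and 1 core pluripotency gene rose. The G1, germline and imprinted lists had 0 calls, while 4 Xlr genes fell and 2 naive genes rose. The cause of these changes was not tested. Eomes kept its sign and did not pass under any alternative run, at -0.49 to -0.23 with 1 library left out. Itga9, which did not pass, ran from -0.422 to 0.053 with 1 library left out, above 0 without pInv replicate 3, and was 0.033 with pKO1 alone. Slc41a1 was -0.017 with pKO2 alone. Depth limits genes of a few CPM, and single libraries of pInv decide many calls.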
